A study of Homo sapiens with 12 samples.

Results

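The interaction of BEZ-235 and SAHA in the neuroblastoma line NB-1 was measured over all genes as the departure of the drug pair from the sum of its single drugs. The members are all 12 libraries of the series, read as a design with or without each drug, and all 17774 genes with enough counts to be tested of 58051 in the table. NB-1 is an established cell line in which the genes for the transcription factor MYCN and the receptor kinase ALK are amplified. The cells were kept for 48 h in DMSO (the solvent), in 0.5 µM BEZ-235, in 0.5 µM SAHA, or in both drugs at these doses, with 3 biological replicates in each of 4 groups, and polyadenylated RNA was sequenced. The model is limited to 1 line, 1 dose of each drug and 1 time.

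BEZ-235 (dactolisib) inhibits the kinases PI3K and mTOR, which carry growth factor signals to protein synthesis, lipid synthesis and the cell cycle and which keep FOXO transcription factors out of the nucleus. SAHA (vorinostat) inhibits histone deacetylases, enzymes that take acetyl groups off histones and other proteins, so that acetylation builds up on chromatin. The expectation for the pair was that its change against DMSO equals the change with BEZ-235 plus the change with SAHA, both as log2 fold changes. The interaction is the measured change minus that sum, so a value of 1 means a level with both drugs that is at 2 times the expected one. A gene that both drugs lower and that lies above the sum was lowered less than the sum, and need not be higher than in DMSO.

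The libraries held 17662944 to 79543539 counts, with SAHA replicate 2 the deepest and all others at 29544051 or below. The 3 combination libraries stood apart in a trend of their counts with transcript GC content. Without a correction, the median interaction ran from -0.74 for genes near 34% GC to 1.28 for genes near 68% GC, and the genes called above the sum had a median GC content of 59.6% against 40.7% for those called below. Each library was therefore corrected for the GC content and length of the longest transcript, after which the medians of the GC classes lay between -0.07 and 0.10 and the called genes had median GC contents of 49.4% and 49.1%, beside 48.5% for all genes tested. A biological change tied to GC content is removed with the library trend, and they cannot be told apart. Levels below are corrected CPM, counts scaled to library size (CPM) after this correction, and values after ± are SD for levels (n = 3) and SE for log2 values. A log2 value given with an adjusted p is the interaction, unless the sentence gives it for a single drug or as a difference. Adjusted p-values are those of edgeR's 2-sided quasi-likelihood test, Benjamini-Hochberg adjusted over 17774 genes, and a gene is called at an adjusted p under 0.05.

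**Figure D1:**
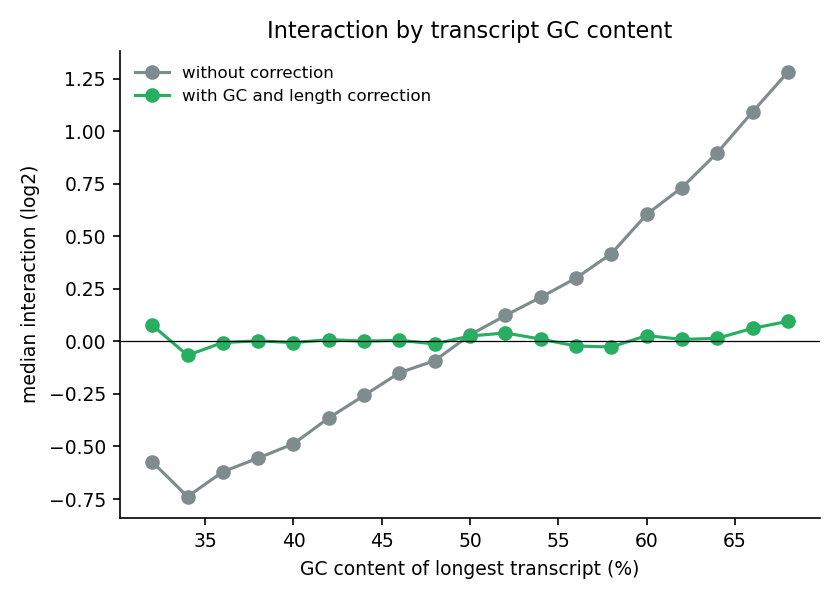
Median interaction (log2, y axis) of the genes tested in classes of transcript GC content (%, x axis), without correction (grey) and with the correction for GC content and length (green). The grey line starts at -0.57 at 32%, has its lowest point of -0.74 at 34% and ends at 1.28 at 68%, and the green points lie between -0.07 and 0.10.

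NB-1 held the transcripts that mark sympathetic neuroblasts. In DMSO, PHOX2A stood at 139, HAND2 at 411, GATA3 at 173 and TH, the first enzyme of catecholamine synthesis, at 133 corrected CPM, while DBH, a later enzyme of that pathway, stood at 1.98 and ISL1 at 24.7. Leukocyte markers summed to between 0.678 and 2.96 CPM in every library, with CD3D at 0 counts, and SOX10, CDH19, PMP2 and MAL of the Schwann cell list were at 0 counts in all 12 libraries. In bulk RNA, fewer cells of a type and less RNA per cell cannot be told apart.

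Of 17774 genes tested, 3506 (19.7%) departed from the sum, 1838 above it (10.3%) and 1668 below it (9.38%). Most departures were moderate, with a median size of 0.52 among called genes, and 253 genes lay at least 2-fold above and 259 at least 2-fold below the expected level. In 1837 of the genes called above and in all 1668 called below, each of the 3 combination libraries lay on the called side of the expectation. The calls were made from these same libraries, so this is a description and no separate support. Counted on the linear scale, where changes in CPM rather than log2 changes are added, 1792 of the genes called above and 1591 of those called below kept their side. The number called above was 1177 without BEZ-235 replicate 3. Without the correction 6834 genes were called, and 2193 of the 3506 were then called in the same direction and 80 in the opposite one. The genes that kept call and direction in all 24 alternatives numbered 500 above and 549 below.

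**Figure D2:**
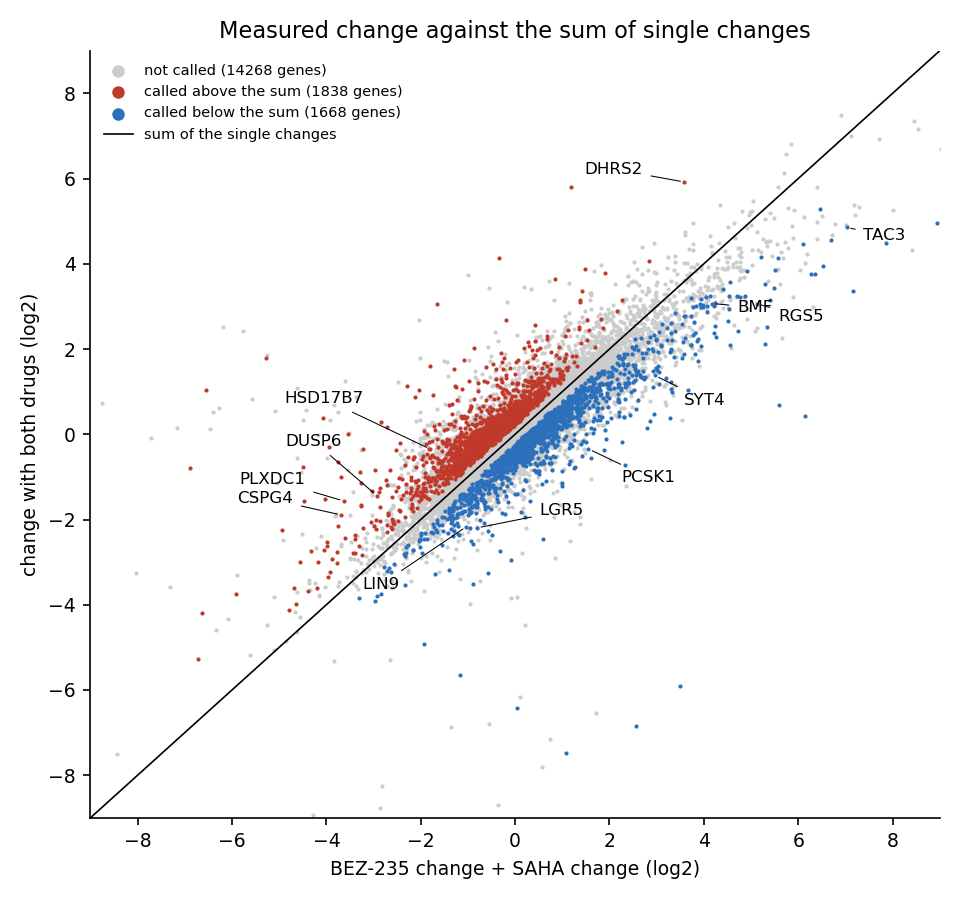
Change with both drugs against DMSO (log2, y axis) plotted against the sum of the changes with BEZ-235 and with SAHA (log2, x axis), 1 point per gene, with the line of equality. Red genes (1838) are called above the sum and blue genes (1668) below it, both axes share the DMSO libraries, and 43 genes lie outside the range of 9 in either direction.

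The series title names HBP1, MYCN and ALK. HBP1 encodes an HMG-box repressor of cell cycle genes (ENSG00000105856, chromosome 7, 107168961 to 107202529, coordinates here and below in hg38). Its level was 58.7, 62.8 and 58.7 in DMSO, 105, 115 and 109 with BEZ-235, 73.0, 68.2 and 71.4 with SAHA and 113, 91.1 and 96.6 with both drugs. All combination libraries lay above all DMSO and SAHA libraries, and they overlapped the BEZ-235 libraries. The sum predicted 129, so HBP1 fell short of it (-0.36 ± 0.10, adjusted p = 0.0148), and the call held in all 24 alternatives. MYCN stood at 1075 ± 124 in DMSO, 1104 ± 20.7 with BEZ-235, 889.7 ± 60.7 with SAHA and 684 ± 56.9 with both drugs (SD, n = 3), where the sum predicted 913. This departure (-0.42 ± 0.12, adjusted p = 0.0191) was not called without DMSO replicate 1 (-0.34, adjusted p = 0.0504) and came to -0.04 without the correction. ALK, at 4485 ± 354 in DMSO and 3982 ± 134 with both drugs (SD, n = 3), gave -0.33 ± 0.11, adjusted p = 0.0422, a call that was lost when any 1 of 9 of the 12 libraries was left out and that came to 0.06 without the correction and 0.22 with the length correction alone.

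Of the genes reported here for the highest interactions, the one farthest above the sum was DHRS2. It encodes a mitochondrial short-chain dehydrogenase and is widely raised by deacetylase inhibitors. DHRS2 (ENSG00000100867, chromosome 14, 23630115 to 23645639) stood at 1.63, 1.78 and 1.28 corrected CPM in DMSO, 4.22, 4.37 and 3.80 with BEZ-235, 6.39, 7.74 and 6.68 with SAHA and 100.3, 73.9 and 108 with both drugs. Each single drug raised it by a few CPM, and every combination library lay far above every other library. The sum predicted 18.8, which the mean with both drugs exceeded 5.03-fold (2.33 ± 0.30, adjusted p = 0.000142).

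DHRS2 is 1 of 5 genes named here because both drugs together raised them past each single drug and past the sum, where 28.4% of all genes tested were higher with both drugs than with BEZ-235 and 26.8% higher than with SAHA. GSTM2, a glutathione transferase that detoxifies reactive compounds, was at 33.7, 33.1 and 27.4 in DMSO, 39.5, 34.5 and 34.2 with BEZ-235, 40.3, 36.9 and 31.7 with SAHA and 87.6, 94.6 and 94.1 with both drugs. Its SAHA libraries overlap those of DMSO and those of BEZ-235, and the 3 with the pair lie clear of the other 9 (1.14 ± 0.13, adjusted p = 2.73e-05). KHDRBS3, an RNA-binding splicing factor, was likewise highest with both, with 20.5 ± 1.88 in DMSO, 18.1 ± 2.94 with BEZ-235, 23.3 ± 0.971 with SAHA and 42.8 ± 4.87 with both drugs (SD, n = 3; 1.05 ± 0.15, adjusted p = 0.000188). Neither single drug changed KHDRBS3 past the threshold (-0.18 ± 0.11, adjusted p = 0.184 for BEZ-235 and 0.20 ± 0.11, adjusted p = 0.135 for SAHA). NBDY, a microprotein of the mRNA decapping complex, gave 0.73 ± 0.13, adjusted p = 0.00127, but 0.17 without the correction and -0.02 with the length correction alone. MMP24OS gave 1.19 ± 0.23, adjusted p = 0.0039, and since it lies opposite MMP24 and the strand setting of the counting is not given in the sources used here, its reads may belong to either gene.

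In the other direction, the pair lay below BEZ-235 alone in 27.8% of genes tested and below SAHA alone in 25.7%, and the genes named for lying past both and past the sum are LIN9, SUSD1, MPDU1, ZNF107 and ZNF92. LIN9 fell with each drug and fell much further with the pair. LIN9 is a subunit of the MuvB complex, which regulates cell cycle genes. It stood at 29.7, 30.7 and 31.2 in DMSO, 20.9, 25.0 and 21.8 with BEZ-235, 19.0, 19.5 and 22.1 with SAHA and 7.30, 6.47 and 6.60 with both drugs, against 14.9 predicted (-1.14 ± 0.13, adjusted p = 2.3e-05). All 3 combination libraries lay well below the lowest of the other 9. SUSD1 went from 19.9 ± 1.68 in DMSO to 3.16 ± 0.270 with both drugs (SD, n = 3; -0.63 ± 0.15, adjusted p = 0.00789). It encodes a membrane protein with sushi domains. MPDU1, needed for mannose transfer onto glycans, went from 84.3 ± 3.90 to 9.60 ± 1.20 (SD, n = 3; -0.46 ± 0.12, adjusted p = 0.0116) and was not called without the correction (-0.13). On the linear scale SUSD1 and MPDU1 lay on the other side of the sum, by 3.34 and 25.6 CPM. The zinc finger genes ZNF107 (-1.23 ± 0.16, adjusted p = 6.68e-05) and ZNF92 (-1.19 ± 0.21, adjusted p = 0.000978) also lay below both drugs and the sum, and their counts are uncertain because such genes have close copies.

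**Figure D3:**
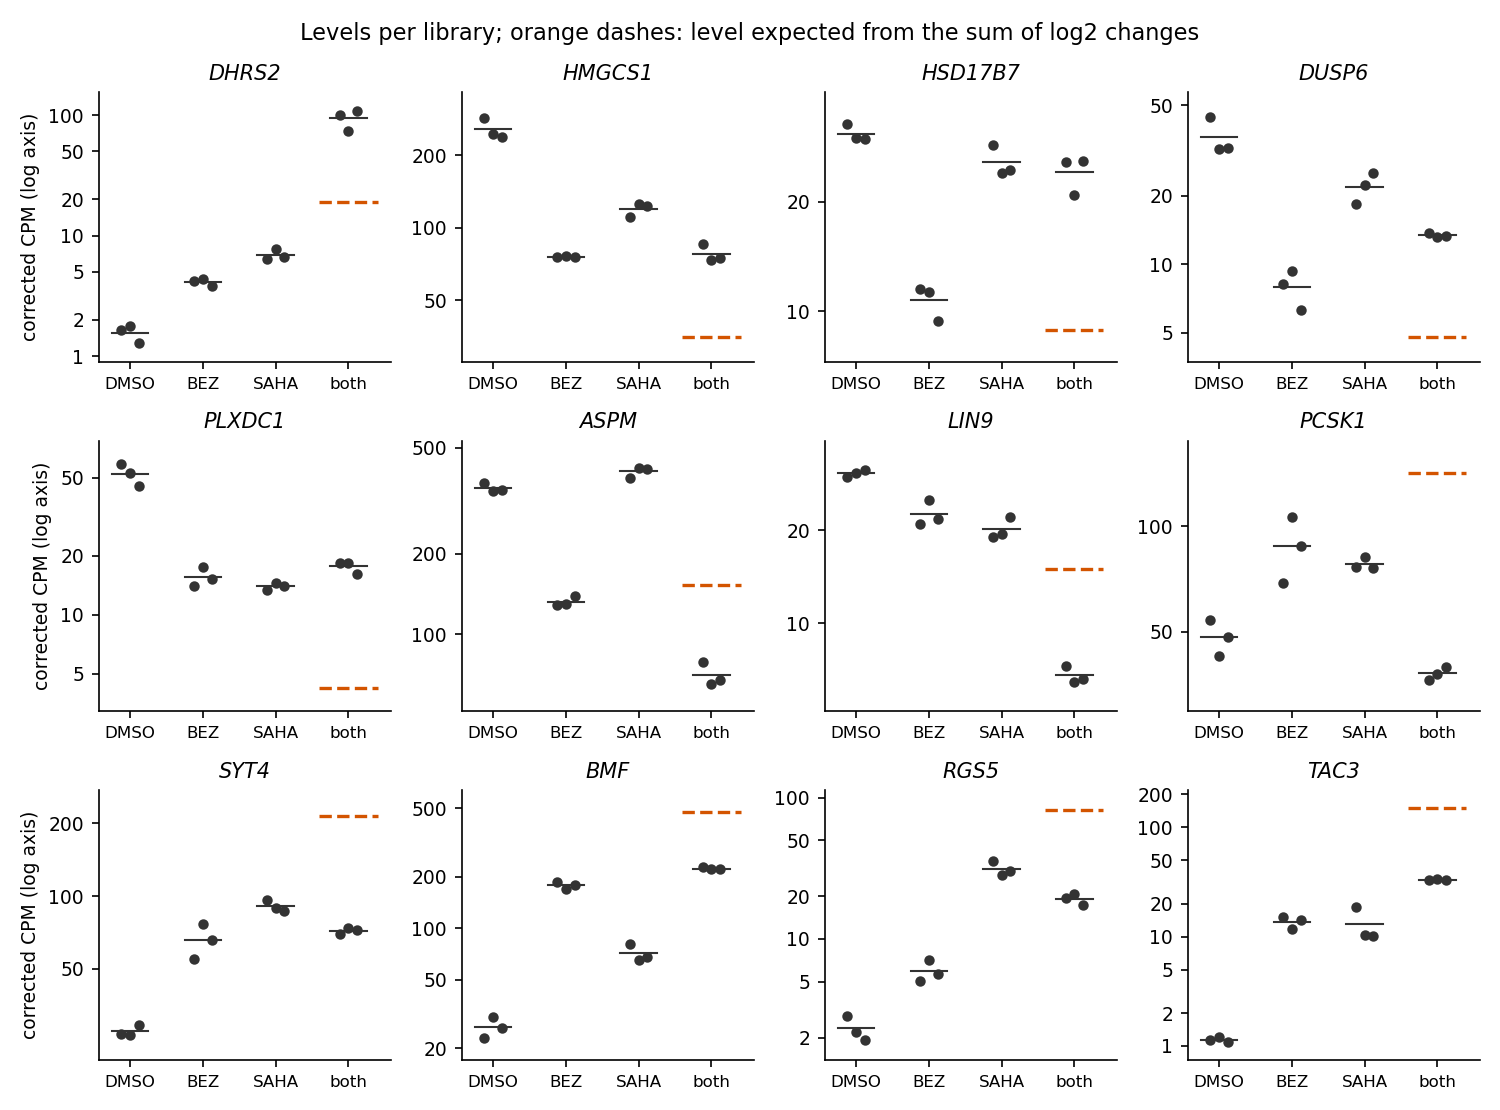
Corrected CPM (log axis) of 12 genes in each library by group, with 3 points and their mean as a line per group, and orange dashes at the level the sum of log2 changes predicts for both drugs. DHRS2, HMGCS1, HSD17B7, DUSP6 and PLXDC1 lie above the dashes in all 3 combination libraries, and the other 7 genes lie below them in all 3.

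Genes of cholesterol and fatty acid synthesis were mostly lower with each drug, and with both they were lowered less than the sum. Of 32 measured genes of this list, 20 were called above the sum and 2 below it, with a median interaction of 0.49, beside 10.3% above and 9.38% below and a median of 0.00 over all genes tested. The median change against DMSO was -1.21 with BEZ-235, -0.58 with SAHA and -1.22 with both drugs. Across the alternatives 17 to 21 members were called above, 17 of them without the correction, and the members called above under every alternative numbered 11. These enzymes are targets of the SREBP factors, which mTOR signalling activates.

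The first steps of the pathway showed this. ACAT2, which joins acetyl-CoA units ahead of the listed steps, went from 119, 115 and 101 in DMSO to 16.5, 14.2 and 13.4 with BEZ-235, 31.0, 37.7 and 38.1 with SAHA and 15.6, 13.2 and 13.1 with both drugs. The BEZ-235 and combination libraries overlap, although SAHA alone had lowered the gene (1.57 ± 0.14, adjusted p = 3.95e-06). HMGCS1, which makes HMG-CoA (ENSG00000112972, chromosome 5, 43289395 to 43313512), stood at 286, 245 and 239 in DMSO, 75.4, 76.4 and 75.4 with BEZ-235, 110.5, 126 and 123 with SAHA and 86.0, 73.9 and 74.8 with both drugs. With both drugs it again did not differ past the threshold from BEZ-235 alone (difference 0.05 ± 0.08, adjusted p = 0.632) and 2.21 times the 35.4 that the sum predicted (1.14 ± 0.11, adjusted p = 3.95e-06). Further along, MVK gave 0.91 ± 0.14, adjusted p = 0.000288, MVD 1.21 ± 0.22, adjusted p = 0.00101 and IDI1 0.78 ± 0.10, adjusted p = 6.36e-05. Both MVD and MVK lay above the sum in every alternative.

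Among the later sterol steps, HSD17B7, a sterol ketoreductase, stood at 32.7, 30.01 and 29.8 in DMSO, 11.5, 11.3 and 9.40 with BEZ-235, 28.8, 24.1 and 24.5 with SAHA and 25.7, 20.8 and 25.98 with both drugs. The combination libraries lay above all BEZ-235 libraries (difference 1.18 ± 0.11, adjusted p = 8.76e-08), so adding SAHA, which lowered HSD17B7 when given alone (-0.27 ± 0.09, adjusted p = 0.0253), raised it in the presence of BEZ-235. For HSD17B7 the interaction was 1.45 ± 0.14, adjusted p = 6.83e-06, and its level with both drugs did not differ past the threshold from SAHA alone (difference -0.08 ± 0.10, adjusted p = 0.523). LSS, which closes the sterol ring, was at 135 ± 6.94 in DMSO and between 72.9 and 88.2 on average in each treated group (0.77 ± 0.07, adjusted p = 4.16e-06). Among fatty acid genes, FASN gave 0.49 ± 0.10, adjusted p = 0.00271 and ELOVL6 0.69 ± 0.07, adjusted p = 1.46e-05, and ELOVL6 was not called without the correction (0.23). The desaturase genes FADS2 (-0.48 ± 0.09, adjusted p = 0.00186) and FADS1 (-0.28 ± 0.08, adjusted p = 0.0162) went the other way and were the 2 members below the sum. FADS1 was not called without SAHA replicate 2 (-0.26, adjusted p = 0.0525), FADS2 came to -0.02 without the correction and 0.06 with the length correction alone, and on the linear scale both lay above the sum, by 20.5 and 88.0 CPM.

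**Figure D4:**
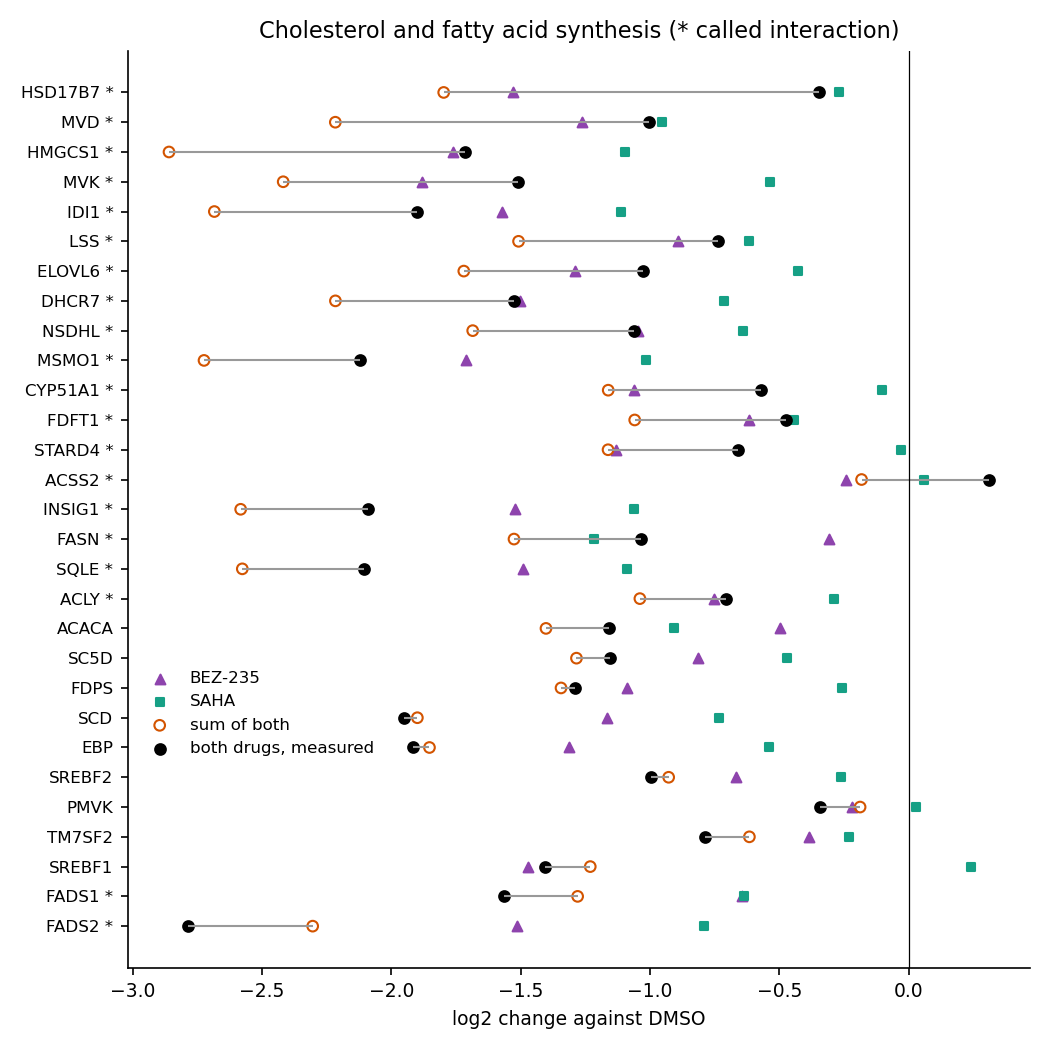
Change against DMSO (log2, x axis) of 29 of the 32 measured genes of cholesterol and fatty acid synthesis with BEZ-235 (triangles), SAHA (squares), the sum of both (open circles) and both drugs as measured (black circles), ordered by interaction, with called genes starred. In 18 genes the black circle lies to the right of the open circle and the gene is called, and in FADS1 and FADS2 it lies to the left and the gene is called.

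The CCAAT box, a motif bound by the factor NF-Y, was searched for at the starts of these genes. CCAAT, read on both strands from 250 bases before to 50 after the RefSeq start, was in 18 of 26 promoters found for the list (69.2%), beside 35.7% of all 27305 promoters of that length. The motif was chosen after the values were seen, and a match is no sign of binding. HSD17B7 is shown as the 1 member above the sum with a match in the 150 bases before its start, among those whose window reached no more than 30 bases into the annotated gene (RefSeq, GRCh38.p14, plus strand, 5′ to 3′, at chr1:162790552-162790701). Capitals mark CCAAT or its reverse complement.
HSD17B7: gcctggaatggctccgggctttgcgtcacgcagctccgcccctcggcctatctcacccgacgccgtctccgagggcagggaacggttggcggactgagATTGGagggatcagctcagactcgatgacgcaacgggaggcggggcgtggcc

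Many feedback genes of the RAS-MAPK pathway lay above the sum. These genes respond to the kinase ERK, and many of their products damp it. Of 23 measured members, 11 were called above and none below by edgeR (1 below at an unadjusted p under 0.05 and 1 by DESeq2), with a median of 0.42, beside 10.3% above and 9.38% below over all genes tested. Across the alternatives 8 to 12 were called above. Without the correction, 2 members were called below, and 1 was without SAHA replicate 1 or combination replicate 2. DUSP6, a phosphatase that inactivates ERK (ENSG00000139318, chromosome 12, 89347232 to 89353271), stood at 44.4, 32.2 and 32.5 in DMSO, 8.16, 9.35 and 6.26 with BEZ-235, 18.3, 22.2 and 25.0 with SAHA and 13.6, 13.2 and 13.3 with both drugs. Its combination libraries lay between the single drugs, above all BEZ-235 libraries and below all SAHA libraries (1.49 ± 0.22, adjusted p = 0.000556).

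SPRY2, an inhibitor of receptor signalling, was at 122, 117 and 104 in DMSO, 58.8, 60.3 and 54.0 with BEZ-235, 121, 128 and 141 with SAHA and 122, 118 and 127 with both drugs. BEZ-235 alone changed SPRY2 by -0.99 on the log2 scale, and the combination libraries overlapped those of DMSO and SAHA (0.89 ± 0.10, adjusted p = 2.19e-05). SPRY4 rose past every other group, to 119 ± 4.84 from 87.5 ± 0.945 in DMSO (SD, n = 3; 0.69 ± 0.08, adjusted p = 2.34e-05), and was not called with the median GC content over transcripts (0.31, adjusted p = 0.0776). The ETS factor ETV4 was lowered by each drug, to 23.1 and 22.3, and stood at 30.2 with both, which did not differ past the threshold from the 34.0 of DMSO (0.97 ± 0.13, adjusted p = 9.69e-05). The immediate early gene EGR1 was at 43.5, 32.1 and 34.8 in DMSO, 17.6, 19.7 and 13.9 with BEZ-235, 12.3, 14.5 and 16.5 with SAHA and 14.6, 22.3 and 17.2 with both drugs. Its treated libraries overlap across all 3 treatments, where the sum predicted 6.72 (1.42 ± 0.25, adjusted p = 0.00269).

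PLXDC1, a membrane protein with a plexin-like domain (ENSG00000161381, chromosome 17, 39063303 to 39154394), fell from 58.8, 52.7 and 45.5 in DMSO to 14.1, 17.6 and 15.3 with BEZ-235, 13.5, 14.6 and 13.99 with SAHA and 18.4, 18.3 and 16.2 with both drugs. The pair overlapped BEZ-235 alone and lay slightly above SAHA alone, at 4.17 times the predicted 4.23 (2.06 ± 0.14, adjusted p = 5.82e-07). CSPG4, the proteoglycan NG2, was at 63.0 ± 1.53 in DMSO, 8.44 ± 1.49 with BEZ-235, 36.5 ± 4.42 with SAHA and 16.9 ± 1.48 with both drugs (SD, n = 3; 1.79 ± 0.15, adjusted p = 2.19e-06).

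RAB15, ABCA7 and CDHR1 changed with each drug alone. RAB15 and ABCA7 did not change past the threshold when BEZ-235 was added to SAHA, and CDHR1 did not when SAHA was added to BEZ-235. RAB15, a GTPase of membrane recycling, was lowered by BEZ-235 from 10.1 ± 0.964 to 3.05 ± 0.174 and raised by SAHA to 16.8 ± 1.51, and stood at 14.8 ± 0.576 with both (SD, n = 3; 1.53 ± 0.15, adjusted p = 7.35e-06). ABCA7, a lipid transporter, fell with BEZ-235 from 21.0 ± 1.86 to 4.42 ± 1.01, rose with SAHA (0.52 ± 0.18, adjusted p = 0.0298) and was at 24.04 ± 1.40 with both drugs (SD, n = 3), where it did not differ past the threshold from SAHA alone (1.92 ± 0.29, adjusted p = 0.00104 for the interaction). CDHR1, a cadherin known from photoreceptors, was lowered by SAHA from 59.7 ± 8.67 to 17.1 ± 0.960 and by BEZ-235 to 41.3 ± 1.33, and with both drugs it was at 36.3 ± 2.16 (SD, n = 3; 1.62 ± 0.12, adjusted p = 9.66e-07). The neurotrophin receptor gene NGFR (0.62 ± 0.09, adjusted p = 0.000115) lay above the sum in every alternative. C9orf16 gave 1.59 ± 0.23, adjusted p = 0.00064. ZACN, the gene of a ligand-gated channel, had the second highest value of the genes reported here for the highest interactions, at 2.22 ± 0.64, adjusted p = 0.0433. That call was lost without any 1 of 9 of the 12 libraries. Its libraries ranged from 4.17 to 11.8 with BEZ-235 and from 16.6 to 35.4 with both drugs.

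The matrix genes of the list of collagen and matrix proteins split, with 8 of 33 above the sum and 7 below it. The shares over all genes tested were 10.3% above and 9.38% below. FN1, fibronectin, was at 169.5, 169 and 176 in DMSO, 46.3, 40.9 and 44.1 with BEZ-235, 218, 195 and 184 with SAHA and 102, 113 and 115 with both drugs. It had its lowest levels with BEZ-235 alone, and the pair lay between BEZ-235 and DMSO (1.12 ± 0.10, adjusted p = 2.06e-06). Tenascin C (TNC) had the same order, from 235 in DMSO to 26.01 with BEZ-235, 274 with SAHA and 57.8 with both (0.93 ± 0.10, adjusted p = 9.3e-06). On the linear scale TNC lay -7.35 CPM from the sum, on the other side. FBN1, fibrillin, lay below the sum at -1.21 ± 0.18, adjusted p = 0.000222, with 16.9 CPM in DMSO and 1.43 with both drugs, and on the linear scale it lay above the sum by 3.17 CPM.

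Among the marker sums given here, that of fibroblasts fell with BEZ-235. The endothelial and pericyte sum and the Schwann cell and glial sum with BEZ-235 overlapped those in DMSO. The 12 fibroblast markers summed to 128 to 135 CPM in DMSO, 47.7 to 52.8 with BEZ-235, 441 to 494 with SAHA and 198 to 216 with both drugs, before the GC correction. Of the 10 tested, 2 lay above the sum and 1 below (COL1A2, not called without BEZ-235 replicate 2), FAP was at 0 counts and POSTN had 2 counts in all libraries together. LUM, lumican, held the largest part of that sum in DMSO, with SAHA and with both, at 53.4, 58.2 and 52.8 corrected CPM in DMSO, 9.67, 10.8 and 8.69 with BEZ-235, 316, 284 and 282 with SAHA and 147, 111 and 122 with both (1.29 ± 0.14, adjusted p = 3.04e-05, and -122 CPM on the linear scale, where it lay below). Endothelial and pericyte markers summed to 204 to 206 in DMSO, 183 to 219 with BEZ-235, 298 to 371 with SAHA and 283 to 318 with both. PECAM1, KDR, TEK, TIE1 and CDH5 were at 25 counts or fewer over all libraries, while VWF had 1086 and ESAM 73. In that list, CSPG4 and NOTCH3 lay above the sum and MCAM and RGS5 below it. NOTCH3 lay -0.692 CPM from the sum on the linear scale, on the other side. Schwann cell and glial markers summed to 364 to 396 in DMSO, 345 to 388 with BEZ-235, 574 to 636 with SAHA and 433 to 468 with both. PMP22, GAP43 and NGFR held nearly all of it. Of its 8 tested members 2 lay above the sum and 1 below, beside 10.3% above and 9.38% below over all genes tested. The part of other cell types in the results was not tested.

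Many mitotic genes lay below the sum. Of 36 measured genes of mitosis and G2/M, 21 were called below and none above by edgeR (0 above at an unadjusted p under 0.05 and 0 by DESeq2), with a median of -0.38, beside 9.38% below and 10.3% above over all genes tested. Across the alternatives 15 to 31 were called below. The median was -0.62 without the correction, with 26 called below. Their median change against DMSO was -1.73 with BEZ-235, 0.28 with SAHA and -1.83 with both drugs. ASPM, a spindle pole protein (ENSG00000066279, chromosome 1, 197084128 to 197146694), stood at 369.8, 345 and 347 in DMSO, 128, 129.7 and 139 with BEZ-235, 385, 420.1 and 418 with SAHA and 78.7, 65.0 and 67.5 with both drugs. SAHA alone raised it slightly (0.20), and with BEZ-235 present SAHA lowered it (difference from BEZ-235 -0.91 ± 0.07, adjusted p = 1.45e-08), to 0.461 times the expected level (-1.12 ± 0.10, adjusted p = 2.53e-06).

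Cyclin B2 (CCNB2), which drives entry into mitosis, was at 57.4, 60.5 and 50.8 in DMSO, 28.1, 29.6 and 29.6 with BEZ-235, 55.1, 64.7 and 67.0 with SAHA and 16.6, 17.9 and 19.7 with both drugs. All its combination libraries lay below all BEZ-235 libraries (interaction -0.84 ± 0.12, adjusted p = 0.000198). PRC1, which bundles microtubules between the separating chromosomes, followed, at 53.4 ± 2.83 with BEZ-235 and 42.6 ± 2.78 with both (SD, n = 3; -0.65 ± 0.09, adjusted p = 0.000122). The kinase genes TTK (-0.70 ± 0.13, adjusted p = 0.0012) and PLK1 (-0.65 ± 0.10, adjusted p = 0.000219) and the kinesin gene KIF2C (-0.67 ± 0.10, adjusted p = 0.000349) were also called, PLK1 not without the correction (-0.26). Not every member departed. MKI67, which encodes the proliferation marker Ki-67, gave -0.05 ± 0.09, adjusted p = 0.736 and 0.11 with the length correction alone. CDK1 gave -0.18 ± 0.08, adjusted p = 0.121, and was called without the correction (-0.73).

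Many mitotic genes share a CHR element, the letters TTTGAA, at which the MuvB complex binds. TTTGAA, on either strand of the window from 250 before to 50 after the start, was in 21 of the 30 promoters found for the list (70.0%), beside 15.4% of all 27305. CCAAT was in 23 of the 30 (76.7%), beside 35.7% of all. Among the 17 promoters of members called below, 11 held TTTGAA (64.7%), which does not exceed the share over the whole list. ASPM at chr1:197146670-197146819 (minus strand) and CDC20, an activator of the anaphase-promoting complex, at chr1:43358831-43358980 (plus strand) are shown as the 2 called members of smallest p under the same limits, again for 150 bases before the RefSeq start in GRCh38.p14, with both motifs, on either strand, in capitals. CDC20 gave -0.71 ± 0.13, adjusted p = 0.00145, and -0.25 without the correction, where it was not called.
ASPM: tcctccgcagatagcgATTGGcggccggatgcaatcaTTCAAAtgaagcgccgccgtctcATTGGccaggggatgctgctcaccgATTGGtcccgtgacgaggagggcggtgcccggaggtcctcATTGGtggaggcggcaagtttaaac
CDC20: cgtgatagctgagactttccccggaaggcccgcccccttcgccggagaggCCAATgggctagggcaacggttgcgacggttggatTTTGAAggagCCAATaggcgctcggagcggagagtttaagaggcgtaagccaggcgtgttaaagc

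Genes of DNA replication and G1/S had a median change of -2.01 under BEZ-235. They stood on both sides of the sum, with 8 of 39 above, 6 below and a median of 0.00. The shares over all genes tested were 10.3% above and 9.38% below. MYBL2, a partner of MuvB in late cell cycle, was at 128 ± 2.42 in DMSO, 7.04 ± 0.536 with BEZ-235, 111 ± 13.8 with SAHA and 10.0 ± 0.718 with both drugs (SD, n = 3; 0.71 ± 0.14, adjusted p = 0.00199). Cyclin E1 (CCNE1) also lay above the sum (1.10 ± 0.22, adjusted p = 0.0021), as did CDK2 (0.96 ± 0.12, adjusted p = 3.77e-05) and CCND3 (0.81 ± 0.13, adjusted p = 0.000384). The helicase genes MCM4 (-0.57 ± 0.09, adjusted p = 0.000309) and MCM2 (-0.60 ± 0.10, adjusted p = 0.000549) lay below it. MCM2 was not called without the correction (-0.14), and both lay above the sum on the linear scale, by 36.3 and 20.9 CPM. Of 18 cyclins, their kinases and inhibitors, 4 lay above and 1 below, and the 1 below became 3 without SAHA replicate 1 and 2 without combination replicate 2.

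Genes of synapses and secretory vesicles were higher at the median with each drug (0.26 with BEZ-235, 0.40 with SAHA) and with both (0.39), which is short of the sum. Of 34 measured, 12 were called below and 2 above, with a median of -0.18, beside 9.38% below and 10.3% above over all genes tested. Across the alternatives 10 to 15 were called below. The 2 above became 1 without DMSO replicate 1, DMSO replicate 3 or BEZ-235 replicate 1. PCSK1, the convertase that cuts prohormones in dense core vesicles (ENSG00000175426, chromosome 5, 96390415 to 96434143), stood at 54.2, 42.6 and 48.2 in DMSO, 68.7, 106 and 88.0 with BEZ-235, 76.7, 81.6 and 75.8 with SAHA and 36.5, 37.9 and 39.6 with both drugs. Each drug alone raised PCSK1, and all 3 combination libraries lay below all DMSO libraries. The mean was 0.268 times the predicted 142 (-1.90 ± 0.19, adjusted p = 6.66e-05).

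SYT4, a synaptotagmin of dense core vesicles, was at 26.9, 26.7 and 29.2 in DMSO, 55.1, 76.5 and 65.7 with BEZ-235, 96.1, 89.2 and 86.4 with SAHA and 69.5, 73.9 and 72.3 with both. It rose in all treatments, and the pair overlapped BEZ-235 alone (-1.58 ± 0.13, adjusted p = 1.86e-06). CADPS, which primes these vesicles for release, rose with BEZ-235 from 17.2 ± 1.497 to 43.8 ± 7.49 and stood at 21.7 ± 1.76 with both drugs, beside SAHA alone (22.5 ± 1.34; SD, n = 3; -1.40 ± 0.15, adjusted p = 2.3e-05). Complexin 2 (CPLX2) was likewise highest with BEZ-235 alone, with 104 in DMSO, 206 with BEZ-235, 110.3 with SAHA and 117 with both (-0.91 ± 0.11, adjusted p = 6e-05). RAB3C (-0.77 ± 0.08, adjusted p = 9.84e-06), SV2C (-0.81 ± 0.10, adjusted p = 3.04e-05) and the granule protein gene CHGB (-0.72 ± 0.08, adjusted p = 2.62e-05) lay below the sum in every alternative. SYP, synaptophysin, gave -0.69 ± 0.08, adjusted p = 1.7e-05 and was not called without the correction (-0.18), and SYN1 gave -0.61 with it and 0.12 without. STX1A, a syntaxin of the release machinery, went the other way, from 88.3 ± 2.98 in DMSO to 140.0 ± 7.30 with both drugs (SD, n = 3; 0.79 ± 0.09, adjusted p = 2.55e-05).

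Neurite and identity genes were divided, beside 10.3% above and 9.38% below over all genes tested. Of 35 genes of neuronal cytoskeleton and neurites, 6 lay above and 7 below the sum, and the 6 became 3 without DMSO replicate 1, DMSO replicate 2, BEZ-235 replicate 3, combination replicate 2 or combination replicate 3. GAP43, a growth cone protein, was at 112 in DMSO, 17.7 with BEZ-235, 236 with SAHA and 69.7 with both (0.91 ± 0.11, adjusted p = 3.85e-05), and on the linear scale it lay -71.9 CPM from the sum, on the other side. The heavy neurofilament gene NEFH did not change past the threshold with either drug and fell with both, from 157 ± 9.66 in DMSO to 87.7 ± 4.88 (SD, n = 3; -0.75 ± 0.09, adjusted p = 3.14e-05), and MAP2 gave -0.62 ± 0.10, adjusted p = 0.000352. Of 24 adrenergic neuroblastoma genes, 2 lay above and 6 below, with 10 below without SAHA replicate 1 and 1 above without DMSO replicate 1, DMSO replicate 3 or BEZ-235 replicate 1, and of 25 mesenchymal genes 8 lay above and 3 below. The median of the adrenergic list was -0.08 with the correction and 0.19 without it, and that of the mesenchymal list -0.06 and 0.06. CHGA, a granule protein of the first list, gave 0.36 ± 0.10, adjusted p = 0.0173, not called without DMSO replicate 1, DMSO replicate 3 or BEZ-235 replicate 1 (adjusted p from 0.0535 to 0.0693), and CD44 of the second gave -0.76 ± 0.09, adjusted p = 4.8e-05.

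FOXO target genes, known to rise when PI3K is blocked, lay partly below the sum. Of 28 measured, 10 were called below and 3 above, with a median of -0.18, beside 9.38% below and 10.3% above over all genes tested. The count above is near that share. Across the alternatives 10 to 13 were below. The 3 above became 1 without DMSO replicate 1 or combination replicate 3. BMF, which promotes cell death by binding BCL2 proteins (ENSG00000104081, chromosome 15, 40087890 to 40108892), stood at 22.8, 30.5 and 26.2 in DMSO, 187, 169 and 179.8 with BEZ-235, 81.1, 65.7 and 67.6 with SAHA and 227, 221 and 220.2 with both drugs. BMF was highest with both, above all other libraries, and yet at 0.465 times the predicted 478 (-1.10 ± 0.13, adjusted p = 3.57e-05). On the linear scale the departure of BMF was -0.782 CPM, small beside the spread between its libraries.

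FBXO32, the ubiquitin ligase subunit atrogin-1, was at 2.28, 2.35 and 2.32 in DMSO, 19.2, 18.5 and 19.2 with BEZ-235, 2.29, 2.16 and 2.38 with SAHA and 12.3, 10.98 and 9.77 with both. SAHA alone left it near DMSO, and with BEZ-235 present SAHA lowered it (interaction -0.75 ± 0.17, adjusted p = 0.00549). KLHL24 showed this too, with 136 ± 4.05 with BEZ-235 and 103 ± 3.45 with both (SD, n = 3; -0.53 ± 0.08, adjusted p = 0.000209), as did RICTOR, a subunit of mTOR complex 2 (-0.62 ± 0.12, adjusted p = 0.00159). SESN3, a sestrin that restrains mTOR, was at 251 ± 5.18 in DMSO, 214 ± 19.9 with BEZ-235, 288 ± 15.5 with SAHA and 133 ± 10.6 with both drugs (SD, n = 3; -0.88 ± 0.10, adjusted p = 2.69e-05). CCNG2 (-0.59 ± 0.11, adjusted p = 0.00107) and TRIB1 (-0.97 ± 0.22, adjusted p = 0.00589) were also below the sum in every alternative. IRS2 gave -0.50 ± 0.12, adjusted p = 0.00942, -0.09 without the correction and 0.16 with the length correction alone. The FOXO motif GTAAACA was in 3 of the 22 promoters found for the list (13.6%), beside 3.41% of all promoters. Of 33 genes of the PI3K and mTOR pathway itself, 5 lay above and 5 below.

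Of the 12 named genes farthest below the sum, 10 rose with each drug alone. Choosing by the interaction favours such genes, so nothing is read from this count beside the 27.7% of all genes tested that rose with BEZ-235 and the 24.3% that rose with SAHA. TAC3, the gene of neurokinin B, was at 1.13, 1.21 and 1.09 in DMSO, 15.0, 11.7 and 14.3 with BEZ-235, 18.8, 10.2 and 10.0 with SAHA and 33.0, 33.7 and 33.0 with both drugs. It was highest with both drugs, and 0.221 times the predicted 149 (-2.18 ± 0.37, adjusted p = 0.00206), while on the linear scale it lay above the sum by 7.65 CPM. RGS5, a brake on G protein signalling (ENSG00000143248, chromosome 1, 163111121 to 163321791), was at 2.87, 2.20 and 1.92 in DMSO, 5.07, 7.13 and 5.62 with BEZ-235, 35.7, 28.5 and 30.5 with SAHA and 19.4, 20.9 and 17.4 with both (-2.07 ± 0.21, adjusted p = 9.3e-06). Its combination libraries lay below its SAHA libraries and above its BEZ-235 libraries. A separate gene entry with the same symbol shares the name RGS5, so its reads may be split.

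GEM, a GTPase that dampens calcium channels, rose in all treatments, to 50.9 ± 3.59 with BEZ-235, 48.3 ± 3.20 with SAHA and 47.0 ± 6.45 with both, from 19.1 ± 0.995 in DMSO (SD, n = 3; -1.44 ± 0.13, adjusted p = 2.57e-06). AQP1, a water channel, rose with each drug to 21.4 and 22.3 and stood at 12.6 with both, beside 12.3 in DMSO (-1.61 ± 0.16, adjusted p = 8.13e-06). MYOM2 (-1.44 ± 0.10, adjusted p = 5.82e-07), GPRC5C (-1.41 ± 0.11, adjusted p = 1.44e-06) and C17orf58 (-1.40 ± 0.19, adjusted p = 9.97e-05) were highest with BEZ-235 alone. LGR5, a receptor for R-spondins in Wnt signalling, was at 22.4, 20.5 and 26.7 in DMSO, 31.1, 31.9 and 33.4 with BEZ-235, 11.4, 9.32 and 8.47 with SAHA and 5.87, 5.67 and 3.74 with both. BEZ-235 alone raised it, SAHA lowered it, and the pair was lower than SAHA alone (difference -0.92 ± 0.16, adjusted p = 0.000126). The interaction of LGR5 was -1.39 ± 0.20, adjusted p = 0.000236. JUND, an AP-1 subunit whose transcript has a GC content of 69.7%, gave -1.43 ± 0.15, adjusted p = 2.62e-05 with the correction and -0.08 without it, where it was not called.

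**Figure D5:**
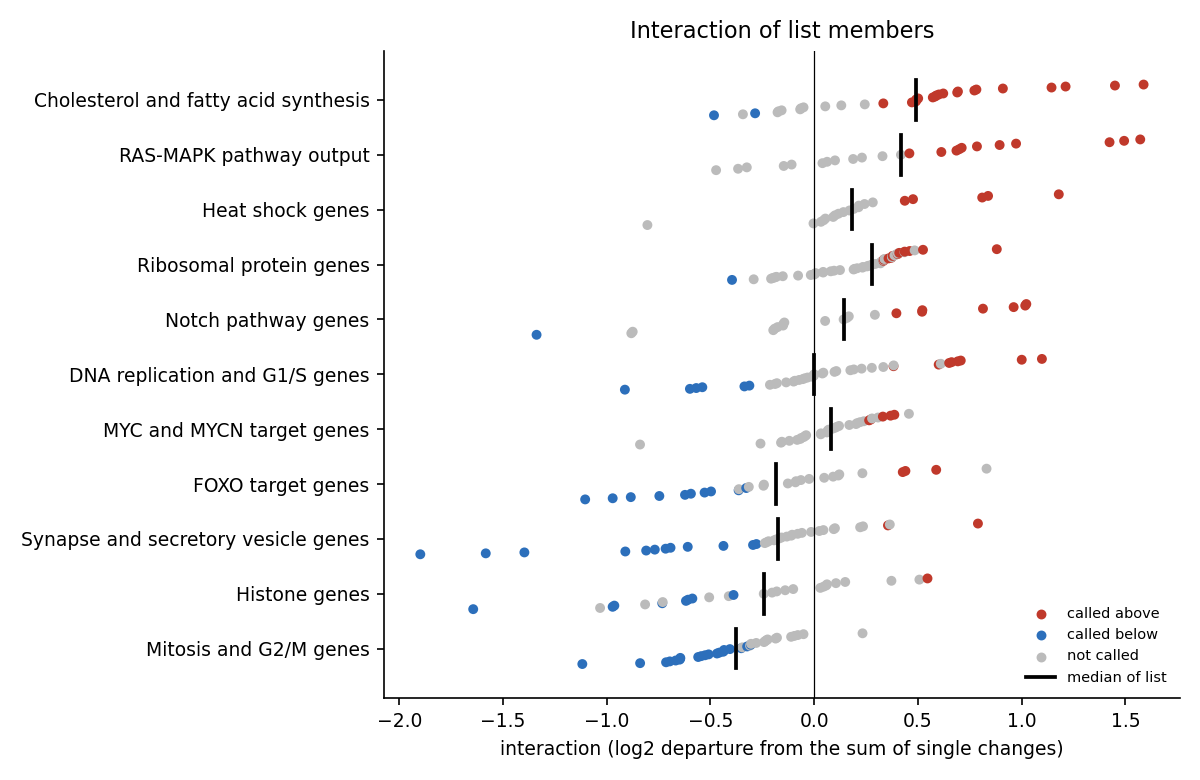
Interaction (log2, x axis) of each measured member of 11 gene lists, 1 point per gene, red where called above the sum, blue where called below and grey where not called, with the median of each list as a black bar. The medians run from -0.38 for mitosis and G2/M genes to 0.49 for cholesterol and fatty acid synthesis.

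Chaperone and ribosome genes leaned above the sum. Of 20 heat shock genes, 5 lay above and none below by edgeR (1 below at an unadjusted p under 0.05 and 0 by DESeq2), with a median of 0.18, beside 10.3% above over all genes tested. HSPB1, a small heat shock protein, was at 57.6, 60.7 and 52.5 in DMSO, 26.6, 31.8 and 27.4 with BEZ-235, 70.9, 73.9 and 81.3 with SAHA and 65.0, 63.1 and 74.8 with both drugs. BEZ-235 alone lowered it, and with both drugs it overlapped SAHA alone (0.84 ± 0.12, adjusted p = 0.000153). HSPA1B, an inducible HSP70 gene, gave 0.81 ± 0.13, adjusted p = 0.00057, and its counts are uncertain because HSPA1A is a near-identical copy. Of 51 ribosomal protein genes, 11 lay above and 1 below, with a median of 0.28. That count rests on single libraries: it was 3 without DMSO replicate 2 or BEZ-235 replicate 3, 4 without DMSO replicate 1, SAHA replicate 1 or combination replicate 3, 5 without SAHA replicate 2, 7 without BEZ-235 replicate 1 and 23 without DMSO replicate 3. The 1 below was 2 without SAHA replicate 1 and 3 without combination replicate 1. Ribosomal protein genes also have many processed copies, so their counts are uncertain.

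The Notch pathway, by which neighbouring cells signal through membrane receptors, had 7 of 21 genes above the sum and 1 below. Among all genes tested 10.3% were above and 9.38% below. The 1 below became 2 without SAHA replicate 1 or combination replicate 2. The receptor gene NOTCH1 was at 108, 111 and 108 in DMSO, 63.9, 63.4 and 62.7 with BEZ-235, 47.3, 47.6 and 53.4 with SAHA and 54.8, 57.5 and 62.1 with both drugs. Each drug alone lowered it, and the pair lay below the BEZ-235 libraries and above the SAHA libraries (1.02 ± 0.09, adjusted p = 1.81e-06). Of the targets, HEY1 lay above the sum (0.81 ± 0.11, adjusted p = 6.78e-05). HEYL lay below it (-1.34 ± 0.25, adjusted p = 0.00129), at 1.44 ± 0.332 in DMSO, 6.002 ± 0.416 with BEZ-235, 4.22 ± 0.784 with SAHA and 6.94 ± 0.620 with both drugs (SD, n = 3).

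Targets of MYC and MYCN, mostly genes of ribosome assembly and nucleotide supply, were called above at a share near that of all genes tested (10.3%). Of 34, 5 lay above the sum and none below by edgeR (2 below at an unadjusted p under 0.05 and 1 by DESeq2), beside 9.38% below over all genes. The 5 became 2 without DMSO replicate 2, BEZ-235 replicate 2 or BEZ-235 replicate 3, and 3 without SAHA replicate 1 or 2, while 1 lay below without DMSO replicate 2 or SAHA replicate 1. BOP1, needed for maturation of the large ribosomal subunit, gave 0.39 ± 0.09, adjusted p = 0.00891. Of 15 genes that MYC or MYCN represses, 5 lay above and 2 below. NDRG2, one of the latter, rose in every treatment, from 12.4 ± 0.503 in DMSO to 28.3 ± 1.56 with BEZ-235, 44.9 ± 2.16 with SAHA and 65.7 ± 1.40 with both (SD, n = 3; -0.64 ± 0.09, adjusted p = 0.00019). On the linear scale NDRG2 lay above the sum, by 4.89 CPM. Among 15 host genes of small nucleolar RNAs, 1 lay above, a call lost without DMSO replicate 1 or 2, BEZ-235 replicate 2 or 3 or SAHA replicate 3, and 3 lay below. ZFAS1 of this list rose with BEZ-235 from 18.9 ± 0.973 to 182 ± 4.56 and stood at 149.8 ± 16.8 with both (SD, n = 3; -0.78 ± 0.10, adjusted p = 8.04e-05).

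Histone genes leaned below the sum, with 8 of 27 below, 1 above and a median of -0.24, beside 9.38% below over all genes tested. The 1 above became 2 without SAHA replicate 3, and 4 were below without the correction. Many histone transcripts lack a poly(A) tail and are near-identical, so these counts are uncertain. H1F0, the linker histone of resting cells and a known responder to deacetylase inhibitors, was at 545, 528 and 489 in DMSO, 775, 778 and 740.3 with BEZ-235, 903, 993 and 1039 with SAHA and 914, 940.5 and 953 with both. It rose in every treatment, and the pair overlapped SAHA alone (-0.62 ± 0.09, adjusted p = 0.000207). Of 28 marker genes of deacetylase inhibition, 3 lay above and 3 below, near the shares of all genes tested (10.3% above and 9.38% below). Of 18 histone deacetylases and sirtuins, 3 lay above and none below by edgeR (0 below at an unadjusted p under 0.05 and 0 by DESeq2), and the 3 became 1 without DMSO replicate 1.

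Stress pathways had called genes on both sides, beside 10.3% above and 9.38% below over all genes tested. The count above the sum for the unfolded protein response did not exceed that share. Of 34 targets of ATF4, the factor that drives amino acid supply, 7 lay above and 5 below, and the 7 became 4 without DMSO replicate 2 or BEZ-235 replicate 2. PSPH, the last enzyme of serine synthesis, was lowered by BEZ-235 from 28.2 ± 0.282 to 15.0 ± 1.14 and stood at 23.5 ± 2.49 with both, beside SAHA alone (23.6 ± 2.46; SD, n = 3; 0.90 ± 0.13, adjusted p = 0.000177). The amino acid transporter gene SLC38A2 rose with BEZ-235 from 163 ± 12.4 to 254 ± 22.7 and stood at 142 ± 21.4 with both (SD, n = 3; -0.97 ± 0.16, adjusted p = 0.00121). Of 23 genes of the unfolded protein response, 5 lay below and 2 above, and the 2 became 1 or 0 without any 1 of 9 libraries, all but DMSO replicate 3, BEZ-235 replicate 1 and combination replicate 2. CREB3L2 (-0.55 ± 0.09, adjusted p = 0.00041) and EDEM1 (-0.32 ± 0.07, adjusted p = 0.00581) were below in every alternative.

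Among 28 p53 targets, 6 lay above and 2 below, beside 10.3% above and 9.38% below over all genes tested. The 2 became 4 without combination replicate 1. The kinase gene PLK2 was at 479 ± 31.1 in DMSO, 237 ± 34.5 with BEZ-235, 719 ± 4.79 with SAHA and 600.1 ± 46.2 with both (SD, n = 3; 0.75 ± 0.12, adjusted p = 0.000521). TNFRSF10B, the death receptor DR5, fell to 180.4 ± 3.51 with both drugs from 287 ± 4.61 in DMSO (SD, n = 3). Its interaction was -0.48 ± 0.08, adjusted p = 0.000413. Of 16 BCL2 family genes, BMF and BCL2 lay below and none above by edgeR (2 above at an unadjusted p under 0.05 and 1 by DESeq2), with 1 above without SAHA replicate 3 or combination replicate 1. Of 25 AP-1 and immediate early genes, 4 lay above and 3 below. ARC, an early gene of active neurons, fell with each drug from 38.2 ± 2.19 to 20.6 ± 1.27 with BEZ-235 and 15.3 ± 0.823 with SAHA, and stood at 15.95 ± 1.01 with both (SD, n = 3; 0.94 ± 0.11, adjusted p = 3.14e-05). KLF10 gave 0.80 ± 0.12, adjusted p = 0.000195.

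Metabolic and lysosomal genes were called on both sides, beside 10.3% above and 9.38% below over all genes tested. The counts below the sum for oxidative phosphorylation and glycolysis did not exceed that share. Of 42 nuclear genes of oxidative phosphorylation, 9 lay above and 3 below. The 3 became 1 without DMSO replicate 1 or BEZ-235 replicate 3 and 5 without combination replicate 1. NDUFB8, a subunit of complex I, gave 0.41 ± 0.08, adjusted p = 0.00218. None of the 13 mitochondrially encoded genes was called by edgeR (1 at an unadjusted p under 0.05, below the sum, and 0 by DESeq2), and 1 lay below without DMSO replicate 3, combination replicate 1 or combination replicate 2. Of 26 glycolysis genes, 7 lay above and 2 below, and the 2 became 1 without DMSO replicate 2 or 3, BEZ-235 replicate 2 or 3, or SAHA replicate 2 or 3. Of 40 autophagy and lysosome genes, 8 lay above and 7 below. The 8 became 3 without DMSO replicate 2 or BEZ-235 replicate 3, 4 without DMSO replicate 1, SAHA replicate 2 or combination replicate 3, and 5 without BEZ-235 replicate 1 or 2. CTSB, the lysosomal protease cathepsin B, was at 246, 264 and 253 in DMSO, 402, 408 and 402 with BEZ-235, 652, 619 and 649 with SAHA and 567, 567 and 572 with both drugs. It rose in every treatment, and the pair lay between the single drugs (-0.84 ± 0.07, adjusted p = 2.57e-06). WIPI1, which acts in forming autophagosomes, was highest with both drugs (0.65 ± 0.10, adjusted p = 0.000305). Of 30 interferon and antigen presentation genes, 3 lay above and 5 below, with 7 above and 1 below without the correction, and ISG15, a ubiquitin-like protein, gave 1.41 ± 0.22, adjusted p = 0.000394. The 1 leukocyte marker tested was not called by edgeR, nor at an unadjusted p under 0.05.

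For many lists the counts moved by over 1.5 times when GC content and length were not corrected for. Members above and below the sum then numbered 9 and 3 for the MYC targets, 8 and 4 for the cyclins, 11 and 10 for the PI3K and mTOR pathway, and 12 and 5 for the ATF4 targets. They numbered 3 and 10 for the unfolded protein response, 8 and 0 for the heat shock genes, 11 and 6 for the p53 targets, 8 and 3 for the BCL2 family and 8 and 1 for the AP-1 genes. Among the neural lists they came to 6 and 5 for adrenergic genes, 5 and 6 for mesenchymal genes, 11 and 8 for neurite genes and 6 and 14 for synapse genes. For deacetylases and sirtuins they came to 10 and 2, for the markers of deacetylase inhibition to 7 and 5, for autophagy and lysosome genes to 14 and 9, for collagen and matrix genes to 15 and 6, and for Notch genes to 9 and 2.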

How the data were processed

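Polyadenylated RNA of 12 NB-1 cultures was sequenced after a stranded library preparation, per the labels' protocols. The authors deposited expected counts per gene, values that need not be whole, and STAR, RSEM and hg38 are named in the submitters' processing notes, while versions, annotation and strand setting of the counting were not given in the sources used here. Genes were named and measured for GC content and length with the longest transcript of GENCODE release 29, which holds 57447 of the 58051 identifiers.

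From these values, counts were rounded and 17774 genes with enough counts in the 4 groups were kept (filterByExpr). Library scaling was by TMM in edgeR 4.0.16 with limma 3.58.1 under R 4.3.3. Each library's log2 CPM minus the mean over 12 libraries was fitted by a robust linear fit (MASS 7.3.60.0.1) with natural splines of 5 degrees of freedom in GC content and in log2 length, over the 13347 genes whose mean log2 CPM reached 1 (prior count 2), and the fitted part was taken out through the offsets. The 130 tested genes without annotation got scaling only. A quasi-likelihood model of the 4 group means, leaving 8 residual degrees of freedom, gave the contrast of both drugs minus BEZ-235 minus SAHA plus DMSO, with Benjamini-Hochberg adjustment and a threshold of 0.05. The biological coefficient of variation was 7.93% with the correction and 10.6% without. Scripts were tested on simulated data.

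Named genes were HBP1, MYCN and ALK, the 12 highest and 12 lowest called interactions whose mean log2 CPM reached 3, 5 genes per direction called past both drugs, and up to 2 called members per direction of each of 35 lists. These genes also had to have standard symbols, counts not identical to another gene, the same direction without the correction and all 3 combination libraries on 1 side, apart from list members. The members and lists were chosen with earlier results of these data known, and 36 further genes and the CCAAT motif were added after their values were seen. Some genes these rules chose are not reported here, and counts over lists include them. No set test was run. Alternatives were the correction (none, GC content only, length only, 20 bins of GC content, the median over transcripts), RLE scaling, no filter and a mean CPM of at least 1, unrounded values, DESeq2 1.42.0, a replicate block, the linear scale, and each library left out in turn.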

Additional observations from a re-analysis of the deposited data

How the results depend on the processing

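Of the 3506 genes called, 62.5% kept call and direction without the correction, 64.3% with length only, 94.9% with DESeq2 and 99.8% with unrounded values. The genes above and below the sum numbered 3355 and 3479 without the correction, 3373 and 3463 with length only, and 1568 and 2031 with no filter on low counts. With single libraries left out, the genes above ranged from 1177 (without BEZ-235 replicate 3) to 1840 and those below from 1210 to 1828. After the GC and length correction, the deviations of same-numbered libraries from their group means correlated at -0.14 to 0.06, none of 18 over 0.1. Of 36 pairs with different numbers, 5 were over 0.1, up to 0.16. Pairing by replicate number was thus not seen in the corrected values. The trend that the correction removed was not part of this check, so pairing in that trend was not tested. With a replicate block, 1605 and 1467 genes were called with the correction and 3072 and 3089 without it. Of the named genes, the following changed direction, and the cause was not tested. In the main fit CYC1 (-0.47), SNHG7 (-0.58) and HLA-C (-0.40) lay below the sum. Without the correction they were called above it (adjusted p = 0.0119, 0.0447 and 0.0305). CYC1 was also called above with length only (adjusted p = 0.0417). With the replicate block and no correction, CYC1 and HLA-C were (adjusted p = 0.0171 and 0.0486). The other genes that changed direction were not called in those fits. Without the correction the interactions were 0.058 for ALK, -0.12 for DNAJB11, -0.012 for HDAC8, 0.68 for H1FX, 0.45 for SNHG7, 0.44 for CYC1, 0.21 for UQCRC1, 0.15 for PFKP, 0.38 for HLA-C, 0.23 for HLA-B and 0.12 for SYN1. With the replicate block and no correction they were 0.055 for ALK, -0.12 for DNAJB11, -0.012 for HDAC8, 0.67 for H1FX, 0.45 for SNHG7, 0.44 for CYC1, 0.21 for UQCRC1, 0.15 for PFKP, 0.38 for HLA-C, 0.23 for HLA-B and 0.12 for SYN1. With length only they were 0.22 for ALK, -0.018 for NBDY, -0.15 for GNL3, 0.060 for FADS2, -0.12 for DNAJB11, 0.022 for KLF13, 0.49 for H1FX, 0.32 for SNHG7, 0.28 for CYC1, 0.055 for UQCRC1, 0.055 for PFKP, 0.22 for HLA-C, 0.045 for HLA-B, 0.11 for MKI67, 0.059 for SYN1 and 0.16 for IRS2. In CPM on the linear scale they were 7.65 for TAC3, 3.34 for SUSD1, 25.6 for MPDU1, 36.3 for MCM4, 20.9 for MCM2, 4.89 for NDRG2, 88.0 for FADS2, 20.5 for FADS1, -0.692 for NOTCH3, -71.9 for GAP43, -7.35 for TNC, 3.17 for FBN1 and -122 for LUM. The shallowest library held 17662944 counts, and with no filter on low counts 36336 genes were tested.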
